A study of Mus musculus with 2 samples.

Results

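The proteasome subunit genes of the mouse were followed in single-cell RNA libraries of spinal microglia. They were taken as every gene symbol that begins with Psma, Psmb, Psmc, Psmd, Psme, Psmf or Psmg followed by a digit, which gave 50 of the 32285 genes in the count tables. By role, 7 encode the constitutive alpha subunits of the 20S core (Psma1 to Psma7) and 7 its constitutive beta subunits (Psmb1 to Psmb7). A further 3 encode the inducible catalytic subunits of the immunoproteasome (Psmb8, Psmb9 and Psmb10), and 2 encode core subunits restricted to other tissues, Psma8 of the testis and Psmb11 of the thymic cortex. The 19S regulatory particle is encoded by 6 ATPase genes (Psmc1 to Psmc6) and 11 non-ATPase genes of the Psmd series. Activators and a regulator of the core account for 6 genes (Psme1, Psme2, Psme2b, Psme3, Psme4 and Psmf1) and assembly chaperones for 7 (Psmg1 to Psmg4, Psmd5, Psmd9 and Psmd10). The remaining gene, Psmc3ip, carries the name but encodes a partner of a subunit in meiotic recombination and not a subunit.

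The proteasome degrades proteins tagged with ubiquitin. Its barrel-shaped 20S core cuts the protein chain inside a closed chamber, with the catalytic sites on the beta subunits encoded by Psmb5, Psmb6 and Psmb7, and the 19S particle binds the tagged protein, removes ubiquitin and threads the unfolded chain into the core. In immune cells and after interferon, Psmb8, Psmb9 and Psmb10 take the places of Psmb5, Psmb6 and Psmb7 to form the immunoproteasome, which shapes the peptides shown on MHC class I, and microglia are among the brain cells in which it is known to be made.

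There was 1 library from control mice, labelled WT and given in the study's legend as Eif4ebp1 fl/fl, and 1 library from 4E-BP1 cKO mice (Eif4ebp1 fl/fl:TMEM119CreERT2). Both came from male mice of 8 to 10 weeks that had received 4-hydroxytamoxifen from postnatal day 4 to 9, and the cells of the lumbar spinal cord were digested with collagenase, cleared on Percoll and sorted as CD45 low, CD11b high and CX3CR1 high. Cre is driven from the Tmem119 promoter in the 4E-BP1 cKO mice and is absent from the control mice, so that loss of 4E-BP1 and the presence of Cre cannot be told apart. How many mice each library pooled was not stated in the labels or methods. With 1 library per genotype no p-value was computed, and every interval below is an exact 95% interval for counting error. Variation among mice or between sorts lies outside it.

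A transcript was counted once for each unique molecular identifier (UMI). A barcode counted as a cell when over 300 genes were seen in it and less than 5% of its UMIs were mitochondrial. The control library gave 1147 such cells and 4803562 UMIs, the 4E-BP1 cKO library 445 cells and 1734332 UMIs, at medians of 3053 and 2776 UMIs per cell. The libraries shared 0 barcodes. By Scrublet, 4 cells of the control library were doublets where 10.5 were expected, and 11 of the 4E-BP1 cKO library where 1.6 were, and all stayed in the values below. All 10 microglial markers were detected in both libraries, at a summed 12348 UMIs per 1000000 (CPM) in the control and 12291 CPM in the 4E-BP1 cKO library, with Tmem119 at 433 and 142 CPM. The marker lists of 9 other cell types lay between 1.04 and 72 CPM in the control and 0.577 and 103 CPM in the 4E-BP1 cKO library. Those of oligodendrocytes stood at 56.2 and 103 CPM and those of endothelium at 72.0 and 28.8 CPM, and their part in the differences between the libraries was not tested. The targeted gene, Eif4ebp1, had 95 UMIs (19.8 CPM, interval 16.001 to 24.2) in the control and 51 UMIs (29.4 CPM, 21.9 to 38.7) in the 4E-BP1 cKO library. These reads come from the 3′ end of the transcript, so that the count does not check the deletion.

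Proteasome genes took 9985 UMIs, or 0.208% of all UMIs, in the control library and 3962 UMIs, or 0.228%, in the 4E-BP1 cKO library. In the control library the 11 non-ATPase genes of the 19S particle held the most UMIs (2552, 0.0531% of the total), followed by activators and regulator (1856), constitutive beta (1715) and alpha subunits (1663), ATPases (1219), immunoproteasome subunits (543) and chaperones (400). Of the 50 genes, 39 reached 100 UMIs over both libraries, and counts and medians over members below are over these 39. They held between 101 and 1265 UMIs, with median levels of 43.1 CPM in the control and 47.3 CPM in the 4E-BP1 cKO library. All 7 alpha, 7 constitutive beta, 3 immunoproteasome, 6 ATPase and 11 non-ATPase genes were among them. These are UMI counts as captured, and since 3′ capture differs between genes, their order is not an order of transcript levels.

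**Figure D1:**
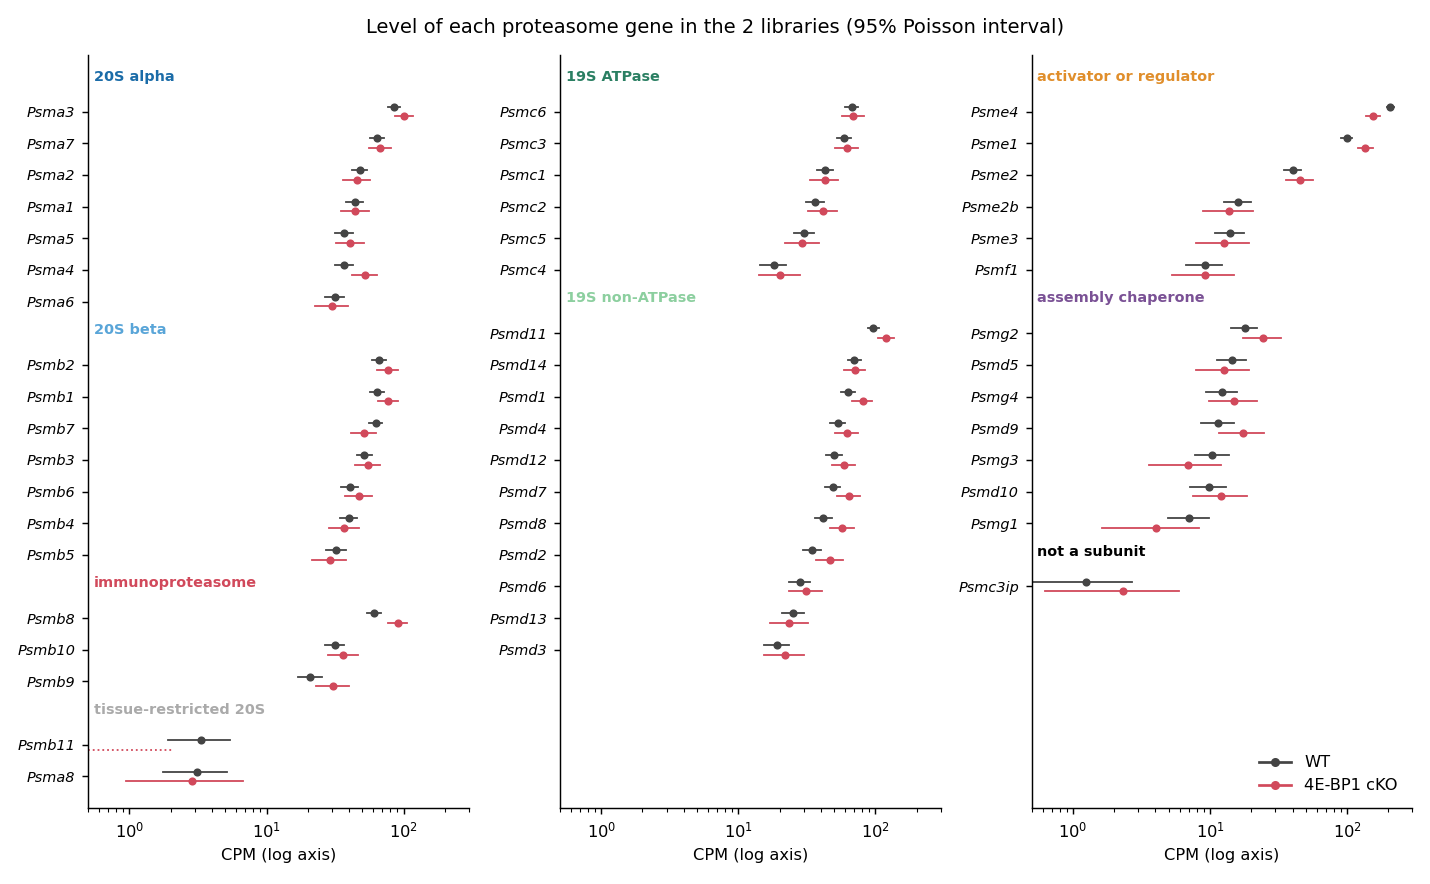
Level of each of the 50 proteasome genes in CPM (log axis), by role, with black points for the WT and red points for the 4E-BP1 cKO library and lines for the exact 95% Poisson interval; a dotted line marks a count of 0. Most points of the libraries lie close together, with Psme4 to the left in the 4E-BP1 cKO library and Psmb8, Psme1 and Psma4 to the right.

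Of the 50 genes, 11 were under 100 UMIs. These were Psme3, Psmf1, Psmd5, Psmd9, Psmd10, Psmg1, Psmg3, Psmg4, Psma8, Psmb11 and Psmc3ip, and 9 of them had at least 20 UMIs. Psmc3ip had 6 UMIs in the control and 4 in the 4E-BP1 cKO library. Psma8, the testis alpha subunit, had 15 and 5 UMIs. Psmb11, the catalytic subunit of thymic cortical epithelium, had 16 UMIs in the control library (3.33 CPM) and 0 in the 4E-BP1 cKO library, where a floor of 3 UMIs amounts to 1.73 CPM. The interval of the ratio was 0 to 0.718. Psmb11 is the neighbor of Psmb5 on chromosome 14, at chr14:54625310-54629556 (GRCm38), and 15 of its 16 UMIs came from control cells with a low share of ribosomal protein transcripts, a division described next.

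Microglia were compared in groups set by the share of their UMIs on 87 ribosomal protein genes, called cell states below. Whether these groups are states of the living cells or reflect the quality of the barcodes was not tested. The control library held 649 cells under 3%, 344 cells from 3 to 8%, 120 cells from 8 to 15% and 34 cells at 15% or more, and the 4E-BP1 cKO library held 207, 139, 80 and 19. The share of cells at 3% or more was therefore different in the libraries, and 77 control and 28 4E-BP1 cKO cells lay between 2.5 and 3.5%. These states also differed in depth. Median UMIs per cell were 2353 under 3% and 5193, 6927 and 5512.5 in the higher bins of the control library, and 1934, 4223, 4904.5 and 4470 in the library of 4E-BP1 cKO mice. The summed level of the 10 microglial markers rose alongside, from 7916 CPM under 3% to 15047 CPM at 3% or more in the control library and from 8198 to 14076 CPM in the 4E-BP1 cKO library. Among markers of other cell types, the endothelial list went from 37.9 CPM under 3% to 92.8 CPM at 3% or more in the control library and from 17.1 to 33.95 CPM in the 4E-BP1 cKO library. The list for border-associated macrophages went from 2.75 to 26.8 CPM in the control and from 7.59 to 6.62 CPM in the 4E-BP1 cKO library. The oligodendrocyte list went from 55.0 to 57.0 CPM in the control and from 57.0 to 123 CPM in the 4E-BP1 cKO library. The part of depth and of these markers in the values below was not tested beyond the settings named.

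Transcripts of the proteasome rose with the ribosomal share in both libraries. In control cells the 50 genes summed to 1557 CPM (interval 1500 to 1616) under 3%, 2263 CPM (2195 to 2332) from 3 to 8%, 2570 CPM (2467 to 2677) from 8 to 15% and 2876 CPM (2645 to 3122) at 15% or more. In 4E-BP1 cKO cells the corresponding levels were 1587 (1481 to 1699), 2415 (2299 to 2536), 2759 (2606 to 2918) and 3004 CPM (2670 to 3367). Neighboring intervals did not overlap up to the bin of 8 to 15%, and those of the last 2 bins overlapped in both libraries. Setting all cells at 3% or more against those under 3%, the summed level was 1.54-fold higher (1.47 to 1.61) in the control and 1.63-fold higher (1.51 to 1.76) in the 4E-BP1 cKO library. When each cell was thinned to 872 UMIs, the log2 ratios were 0.72 and 0.78, against 0.62 and 0.71 with every UMI.

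The rise was unequal between the role groups. By summed level the immunoproteasome genes showed the largest ratio in both libraries, from 51.7 to 150.4 CPM (2.91-fold, 2.33 to 3.67) in control cells and from 77.8 to 193 CPM (2.48-fold, 1.77 to 3.54) in 4E-BP1 cKO cells. The constitutive alpha subunits followed at 2.05-fold (1.83 to 2.30) and 1.85-fold (1.52 to 2.27), the constitutive beta subunits at 1.83-fold (1.64 to 2.04) and 2.08-fold (1.70 to 2.58), and the 19S ATPases at 1.76-fold (1.55 to 2.01) and 1.69-fold (1.35 to 2.15). The non-ATPase subunits of the 19S particle differed less, by 1.23-fold (1.13 to 1.34) and 1.36-fold (1.18 to 1.56), as did the activators and regulator as a group, by 1.19-fold (1.08 to 1.31) and 1.34-fold (1.11 to 1.61). Assembly chaperones lay between, at 1.42-fold (1.14 to 1.78) and 1.62-fold (1.10 to 2.44). The activator sum joins Psme1 (3.81-fold and 6.92-fold) and Psme2 (2.41-fold and 5.31-fold) with Psme4, whose ratios were 0.710 and 0.510. By the median log2 ratio of its members the immunoproteasome group was highest in the control library (1.43, beside 1.28 for beta, 1.14 for alpha and 0.77 for activators), whereas in the 4E-BP1 cKO library its 0.87 lay below the 1.55 of beta, 1.21 of alpha and 1.49 of activators. The immunoproteasome genes are short, and over all genes the ratio fell with the genomic span of the gene, as described below. The part of span in the order of the role groups was not tested.

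**Figure D2:**
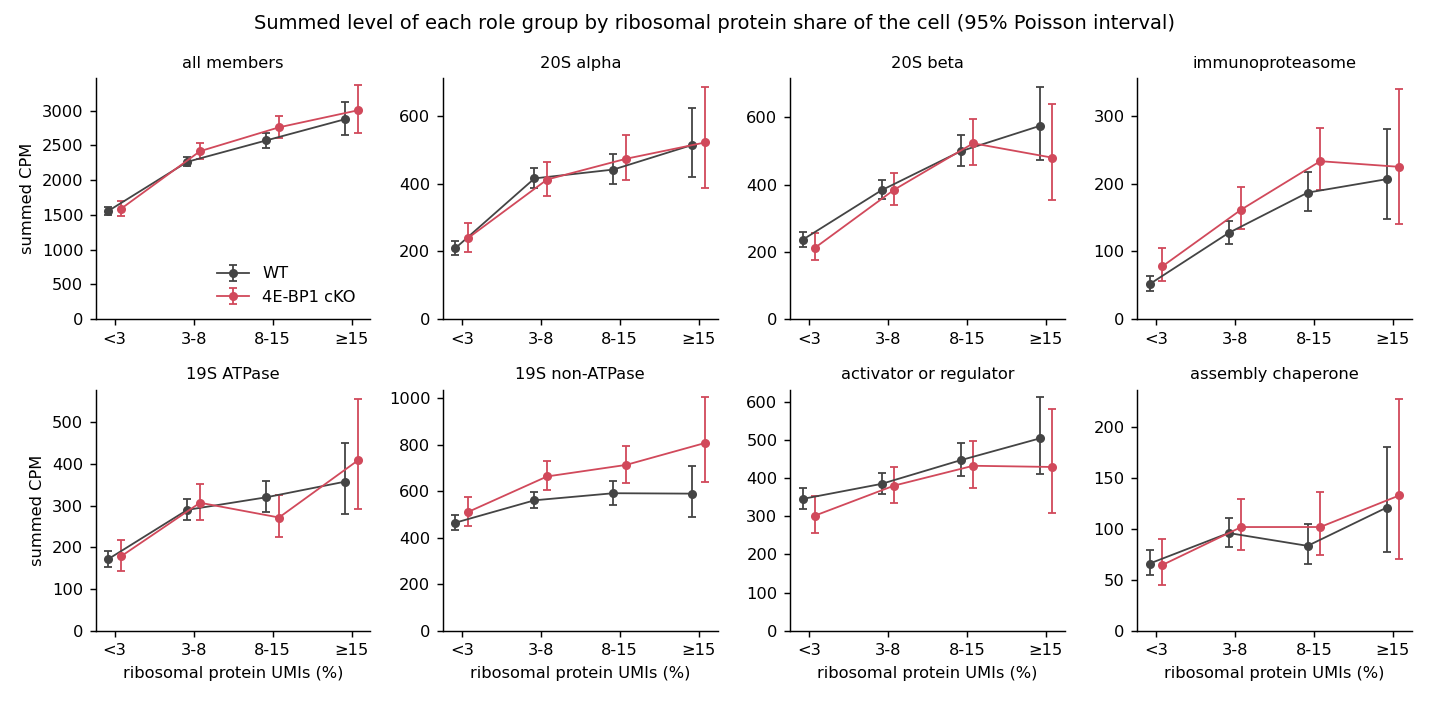
Summed CPM of all members and of each role group (vertical axes from 0) in 4 bins of the ribosomal protein share of a cell, black for WT and red for 4E-BP1 cKO, with exact 95% Poisson intervals. The levels rise from the first to the third bin in both libraries for alpha, beta and immunoproteasome genes, and the non-ATPase and activator groups rise by a smaller ratio.

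Among single genes, 23 of the 39 members were over 1.5-fold higher in cells at 3% or more in both libraries, where 15.4% of the 7184 genes with at least 100 UMIs were. This count held all 3 immunoproteasome genes, 5 of 7 alpha, 5 of 7 constitutive beta, 4 of 6 ATPase, 4 of 11 non-ATPase and 2 of 4 activator genes, and 0 of 1 chaperone gene. None of the 39 was over 1.5-fold lower in both libraries, where 12.1% of all such genes were. The median log2 ratio over members was 0.92 in the control and 0.87 in the 4E-BP1 cKO library, beside -0.13 and -0.14 over all genes. The ratio was above 1 by any amount in both libraries for 35 members (89.7%, beside 33.8% of all genes), and its interval lay above 1 in both for 17, where 14.9% of all genes did so. Across the 39 members the log2 ratios of the libraries, which share no cells, correlated with a Pearson r of 0.68 and a Spearman rho of 0.65, beside 0.81 and 0.76 over the 7184 genes. The points of this correlation are genes of the same cells and not independent replicates.

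**Figure D3:**
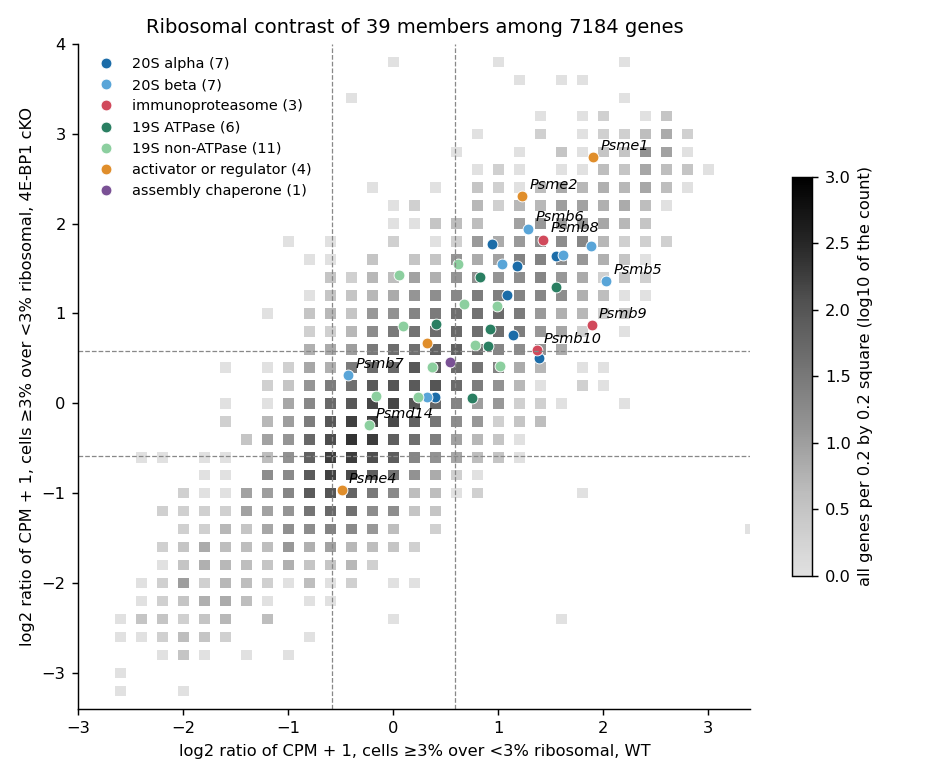
Log2 ratio of CPM + 1 in cells with at least 3% against cells with under 3% ribosomal protein UMIs, in the WT library (horizontal) and the 4E-BP1 cKO library (vertical), with the 39 members colored by role over the density of 7184 genes in gray and dashed lines at 1.5-fold. Members lie mostly in the upper right, with Psme1 at the top (1.90 and 2.74) and Psme4 at the lower left (-0.49 and -0.97).

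The catalytic beta subunits differed among themselves. Psmb5, the chymotrypsin-like site, was at 10.4 CPM under 3% and 45.6 CPM at 3% or more in control cells, and at 13.3 and 35.6 CPM in 4E-BP1 cKO cells, log2 ratios of 2.02 and 1.36. Psmb6, the caspase-like site, was at 20.9 and 52.3 CPM in control cells and at 15.2 and 61.3 CPM in 4E-BP1 cKO cells (1.28 and 1.94). Both genes were thus higher in the ribosome-richer cells of each library. Psmb7, the trypsin-like site, did not share this. It was at 74.8 and 55.3 CPM in control cells, a ratio of 0.739 (interval 0.585 to 0.934), and at 43.7 and 54.7 CPM in 4E-BP1 cKO cells, a ratio of 1.25 (0.768 to 2.11), so that its direction was not the same in the libraries. Among cells of 2000 to 6000 UMIs its log2 ratio was -0.54 in control and -0.77 in 4E-BP1 cKO cells. Depth still differed within this window, at median UMIs of 3036 under 3% and 4324 at 3% or more in control cells. In 4E-BP1 cKO cells these medians were 2807 and 3892. Psmb4 and Psmb1, noncatalytic beta subunits, were among the members with the largest ratios, at log2 1.88 and 1.75 for Psmb4 and 1.62 and 1.65 for Psmb1.

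The inducible subunits were higher in the ribosome-richer cells of both libraries. Psmb8 (LMP7), which replaces Psmb5, was at 29.1, 67.3, 92.2 and 146 CPM across the 4 bins of control cells and at 32.3, 86.8, 156 and 143 CPM across those of 4E-BP1 cKO cells. It increased from bin to bin up to 8 to 15% in both libraries, and the last bin rests on 29 and 14 UMIs. Psmb9 (LMP2), which replaces Psmb6, was at 7.15 CPM under 3% and 29.1 CPM at 3% or more in control cells, a ratio of 4.08 (2.26 to 7.96). In 4E-BP1 cKO cells Psmb9 was at 18.99 and 35.6 CPM, a ratio of 1.88 whose interval includes 1 (0.928 to 4.19), on 10 UMIs under 3%. Psmb10 (MECL-1), which replaces Psmb7, was at 15.4 and 41.2 CPM in control cells (2.68-fold, 1.76 to 4.19) and at 26.6 and 40.6 CPM in 4E-BP1 cKO cells, where the interval again includes 1 (1.53-fold, 0.829 to 2.99).

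Psmb9 (ENSMUSG00000096727) and Psmb8 (ENSMUSG00000024338) lie in the MHC class II region of chromosome 17 (GRCm38), at chr17:34182030-34187330 on the minus strand and chr17:34198195-34201454 on the plus strand, on either side of the peptide transporter gene Tap1. The annotated starts of Psmb9 and Tap1 are 225 bases apart and point away from each other. The bases between these starts are printed because the starts of both genes border on this interval. They are given 5′ to 3′ on the strand of Psmb9, from chr17:34187331-34187555, with the match to CCAAT, read on the opposite strand as ATTGG, in capitals.
Psmb9 to Tap1: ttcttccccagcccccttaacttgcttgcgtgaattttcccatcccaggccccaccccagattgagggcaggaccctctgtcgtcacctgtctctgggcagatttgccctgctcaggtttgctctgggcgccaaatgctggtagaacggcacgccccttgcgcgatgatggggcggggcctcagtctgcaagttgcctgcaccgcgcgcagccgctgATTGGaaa
Tap1 had 54 UMIs in the control and 28 in the 4E-BP1 cKO library, under the minimum of 100, and its log2 ratio of cells at 3% or more to those under 3% was 0.05 and 0.12, where Psmb9 gave 1.89 and 0.87. The difference between these neighbors was not tested.

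Relative to the constitutive catalytic genes, immunoproteasome UMIs made up a larger part in the ribosome-richer control cells. The ratio of UMIs of Psmb8, Psmb9 and Psmb10 to those of Psmb5, Psmb6 and Psmb7 was 0.487 (94 to 193 UMIs, interval 0.377 to 0.626) under 3% and 0.982 (449 to 457, 0.861 to 1.12) at 3% or more. In 4E-BP1 cKO cells the ratio was 1.08 (41 to 38, 0.677 to 1.72) under 3% and 1.27 (233 to 183, 1.04 to 1.55) at 3% or more. The intervals of the cell states did not overlap in the control and overlapped in the 4E-BP1 cKO library. By pair, Psmb10 to Psmb7 went from 0.206 (0.132 to 0.311) to 0.745 (0.585 to 0.947) in control cells, whereas Psmb8 to Psmb5 was 2.79 (1.62 to 4.99) and 1.76 (1.42 to 2.19) and Psmb9 to Psmb6 was 0.342 (0.167 to 0.657) and 0.558 (0.424 to 0.730), each with overlapping intervals. The pair with Psmb7 as its denominator was therefore the one whose intervals were apart. In 4E-BP1 cKO cells the intervals of all 3 pairs overlapped between the cell states.

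**Figure D4:**
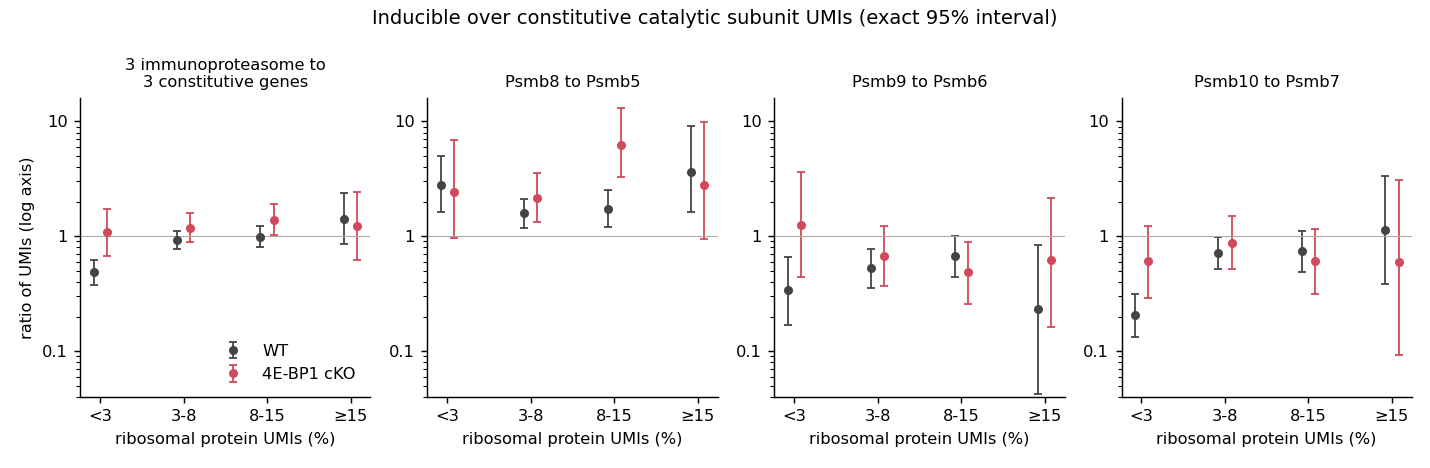
Ratio of UMIs (log axis) of the 3 immunoproteasome genes to the 3 constitutive catalytic genes, and of each inducible subunit to the subunit it replaces, in 4 bins of the ribosomal protein share, black for WT and red for 4E-BP1 cKO, with exact 95% intervals. The WT ratio of all 3 rises from 0.487 in the first bin to 0.927 and 0.994 in the next 2, and the Psmb10 to Psmb7 panel shows the same step.

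The activators went in opposite directions. Psme1 and Psme2 encode PA28 alpha and PA28 beta, which form a ring that opens the core without ubiquitin or ATP and are induced with the immunoproteasome. Psme1 was at 36.3, 99.6, 187 and 287 CPM across the 4 bins of control cells and at 26.6, 149.7, 217 and 266 CPM across those of 4E-BP1 cKO cells, so that every higher bin lay above the one before it in both libraries. Its last bin rests on 57 UMIs in control and 26 in 4E-BP1 cKO cells. Between cells at 3% or more and under 3%, Psme1 differed by 3.81-fold (2.93 to 5.02) and 6.92-fold (4.04 to 12.9), the largest mean log2 ratio of the 39 members. Psme2 was at 21.4 and 51.6 CPM in control cells (2.41-fold, 1.68 to 3.51) and at 11.4 and 60.4 CPM in 4E-BP1 cKO cells (5.31-fold, 2.32 to 14.9). The genes lie close together on chromosome 14, at chr14:55578494-55581527 and chr14:55587440-55591101 (GRCm38). Psme2b, a near copy of Psme2 on chromosome 11 with which it can share reads, had 77 and 24 UMIs and is uncertain for that reason.

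Psme4 encodes PA200, an activator known for its part in the degradation of acetylated histones. It had the most UMIs of the members, 996 in the control and 269 in the 4E-BP1 cKO library, and was lower in the ribosome-richer cells of both. It was at 253, 197, 158 and 116 CPM across the bins of control cells and at 235, 138, 106 and 61.3 CPM across those of 4E-BP1 cKO cells, a fall at every step. The last step rests on 23 UMIs of Psme4 in control and 6 in 4E-BP1 cKO cells at 15% or more. The ratio of cells at 3% or more to those under 3% was 0.710 (0.626 to 0.806) and 0.510 (0.399 to 0.653), and Psme4 was the only member of the 39 whose interval lay below 1 in both libraries, where 20.3% of all genes did so. UMIs of Psme1 and Psme2 together stood to those of Psme4 as 0.228 (105 to 460 UMIs, 0.183 to 0.283) under 3% and 1.06 (567 to 536, 0.938 to 1.19) at 3% or more in control cells, and as 0.161 (20 to 124, 0.0952 to 0.260) and 2.03 (295 to 145, 1.66 to 2.499) in 4E-BP1 cKO cells. Neither library's intervals overlapped between the cell states. Psme1 and Psme2 span 3034 and 3662 bp, and Psme4 spans 109376 bp. With both libraries averaged, the median log2 ratio over all genes was 1.155 from 2 to 4 kb and -0.44 from 64 to 128 kb. The part of span in the difference between these activators was not tested.

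Near the starts of these genes, RefSeq promoter windows of 250 bases before to 50 after the start (GRCm38.p6) were available for 42 members in 45 windows. Short stretches around matches are printed for Psme1, Psmb8 and Psmb5, which were higher in ribosome-richer cells, and for Psme4, which was lower. The matched motif is in capitals, and the bases run 5′ to 3′ on the strand of the gene.
Psme1, interferon-stimulated response element core on the opposite strand, chr14:55578493-55578522: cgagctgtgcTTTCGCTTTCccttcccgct
Psmb8, STAT site TTCNNNGAA, chr17:34198088-34198117: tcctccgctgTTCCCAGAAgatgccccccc
Psmb5, antioxidant response element core TGACNNNGC, chr14:54618023-54618052: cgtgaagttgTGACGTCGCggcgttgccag
Psme4, antioxidant response element core on the opposite strand, chr11:30771758-30771787: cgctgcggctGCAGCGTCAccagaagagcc
Motifs were searched on both strands. The interferon-stimulated response element core was found in 5 of 45 member windows (11.1%) and in 3.44% of all 32851 windows, the antioxidant response element core in 6 (13.3%, against 12.4%), the STAT site in 3 (6.67%, against 8.30%) and CCAAT in 15 (33.3%, against 37.4%). The 5 windows with the interferon core were those of Psmb3, Psmd4, Psmd9, Psme1 and Psmg4. The immunoproteasome genes with Psme1 and Psme2 had 6 windows, of which 1 held the interferon core (Psme1) and 1 the STAT site (Psmb8). Neither motif was found at Psmb9, Psmb10 or Psme2. The antioxidant core was present both at Psmb5, which was higher in ribosome-richer cells, and at Psme4, which was lower there. Such matches are letters in a window and do not show a bound factor.

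Genes of the 19S lid and base with the smallest ratios were Psmd14, Psmd11 and Psmd1. Psmd14 encodes the deubiquitinase of the lid and was at 77.5 and 65.7 CPM in control cells and at 79.7 and 67.1 CPM in 4E-BP1 cKO cells, ratios of 0.847 (0.679 to 1.06) and 0.841 (0.573 to 1.25). Psmd11, a lid scaffold subunit, gave ratios of 0.890 (0.737 to 1.08) and 1.06 (0.780 to 1.45), and Psmd1, a large scaffold subunit of the base, gave 1.18 (0.925 to 1.51) and 1.05 (0.725 to 1.55). Every one of these intervals includes 1. Their direction was not stable, since thinning to 872 UMIs gave log2 ratios of -0.90 and 0.78 for Psmd14 and -0.92 for Psmd1 in the control library. Together with Psme4 and Psmb7, these are the 5 members with the lowest mean log2 ratio, and they are also long genes, at 109376 bp for Psme4, 88683 bp for Psmd14, 74677 bp for Psmd1, 55907 bp for Psmb7 and 44634 bp for Psmd11. Psme1 (3034 bp), Psmb4 (2635 bp) and Psmb5 (3876 bp) are short.

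Over the 39 members the log2 ratio fell with the genomic span of the gene, with a Spearman rho of -0.59 in the control and -0.61 in the 4E-BP1 cKO library, and over 6963 genes with a span rho was -0.61 and -0.58. The points are genes that share libraries, so these are descriptions. Among genes of under 10 kb, 16 of 18 members (88.9%) were over 1.5-fold higher in both libraries, beside 50.2% of 1310 genes. From 10 to 30 kb it was 6 of 14 members (42.9%) beside 17.6% of 2137 genes, and over 30 kb 1 of 7 members (14.3%), the alpha subunit gene Psma6, beside 1.79% of 3516 genes. The median log2 ratio in the control library was 1.26, 0.84 and -0.17 for members of these classes and 0.80, 0.09 and -0.38 for all genes. All 3 immunoproteasome genes are in the shortest class, at 2665 bp for Psmb10, 3260 bp for Psmb8 and 5301 bp for Psmb9. Their log2 ratios in the control and 4E-BP1 cKO library were 1.36 and 0.59, 1.43 and 1.82, and 1.89 and 0.87. With both libraries averaged, the median over all genes was 1.155 from 2 to 4 kb and 0.63 from 4 to 8 kb. The part of gene span in the differences between role groups was not tested further.

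**Figure D5:**
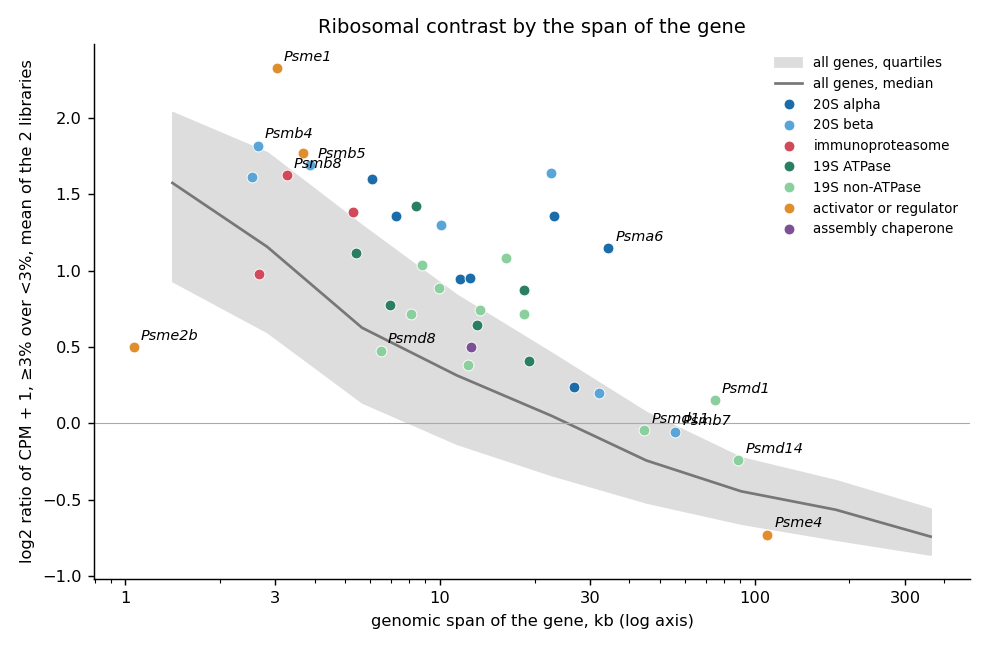
Mean of the log2 ratios of both libraries (cells with at least 3% against under 3% ribosomal protein UMIs) against the genomic span of the gene in kb (log axis), with the 39 members colored by role and the median and quartiles of all genes by span in gray. The points fall from Psme1 (3034 bp) at the upper left to Psme4 (109376 bp) at the lower right, as does the median of all genes.

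Between the genotypes, the proteasome genes differed little with every kept cell and UMI used. The summed level was 1.10-fold higher (1.06 to 1.14) in the 4E-BP1 cKO library, a log2 ratio of 0.14, and 29 of the 39 members were higher there by any amount (74.4%, beside 45.2% of all genes). None of the 39 was over 1.5-fold higher, where 1.87% of the 7184 genes were, and none was over 1.5-fold lower, where 5.01% were. The median log2 ratio over members was 0.18, beside -0.03 over all genes. The log2 ratio between the genotypes also fell with genomic span, with a Spearman rho of -0.34 over 6963 genes and -0.14 over the 39 members. Members had a median span of 11.6 kb, beside 30.5 kb over all genes. The part of span in the differences between the genotypes was not tested. Because ribosome-richer cells were a larger part of the 4E-BP1 cKO library, the ratio was also taken within each of the 4 bins and averaged. Each bin had equal weight, including the last, with 34 control and 19 4E-BP1 cKO cells. This gave a log2 ratio of 0.07 for the summed level and a member median of 0.03, beside -0.07 over all genes. In that average 2 members were over 1.5-fold higher, beside 4.37% of all genes. With each cell thinned to 872 UMIs, which also left out the shallower cells, the summed log2 ratio was 0.25 and 12 members were over 1.5-fold higher, beside 10.5% of all genes. Among cells of 2000 to 6000 UMIs it was 0.21 with 5 members higher, beside 8.41%. The member median was 0.38 after thinning and 0.35 in this depth window, beside -0.04 and -0.03 over all genes. The median member then held 35 and 14 UMIs in the libraries after thinning, and 70 and 27 in the depth window.

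The interval of the ratio excluded 1 for 10 members, 9 of them higher in the 4E-BP1 cKO library, where 11.1% of all genes had an interval above 1, and 1 lower, where 16.1% had an interval below 1. The largest was Psmb8, with 292 UMIs and 60.8 CPM (54.0 to 68.2) in the control and 158 UMIs and 91.1 CPM (77.5 to 106) in the 4E-BP1 cKO library, a log2 ratio of 0.58, just under 1.5-fold. Psmb9 was at 20.8 CPM (16.9 to 25.3) and 30.6 CPM (22.9 to 39.97), a log2 ratio of 0.53. Psmb10 was at 31.4 and 36.3 CPM, a ratio of 1.16 (0.847 to 1.56). Summed, the 3 immunoproteasome genes were 1.398-fold higher (1.20 to 1.62), the largest ratio among the role groups of at least 3 genes. By bin their sum was 51.7 and 77.8, 127 and 162, 187 and 233, and 207 and 225 CPM in control and 4E-BP1 cKO cells. This sum was thus higher in the 4E-BP1 cKO cells of each of the 4 bins, with overlapping intervals within every bin. The sums of all members and of the 19S non-ATPase genes were also higher there in every bin. Averaged over bins, the log2 ratio was 0.31 for Psmb8, 0.80 for Psmb9 and 0.02 for Psmb10. For Psmb9 the last bin rests on 3 and 5 UMIs, and from 8 to 15% it was lower in the 4E-BP1 cKO cells (46.7 and 38.5 CPM). Psmb10 was lower in these cells from 8 to 15% (47.8 and 38.5 CPM) and at 15% or more (45.3 and 30.6 CPM). Psmb8 was at 146 and 143 CPM at 15% or more.

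Psma4, an alpha subunit, was at 36.8 CPM in the control and 52.5 CPM in the 4E-BP1 cKO library (1.42-fold, 1.09 to 1.84), but its log2 ratio of 0.50 was 0.01 when cells were thinned to 872 UMIs. Psme1 was at 99.7 CPM (91.0 to 109) and 136 CPM (119 to 155), a log2 ratio of 0.44 that was 0.06 when averaged over bins and 0.07 after thinning. Psme2 was at 40.2 and 45.6 CPM, a log2 ratio of 0.18 that was -0.26 over bins. The other members higher with an interval above 1 were 19S non-ATPase genes, Psmd8 (41.8 and 57.1 CPM, 1.36-fold, 1.06 to 1.74), Psmd2, Psmd7, Psmd1 and Psmd11. As a group the 11 non-ATPase genes were 1.20-fold higher (1.12 to 1.29). Their intervals did not overlap in the bin of 3 to 8% (561 CPM, 527 to 596, against 663 CPM, 603 to 728) and overlapped in every other bin. Of the 39 members, 3 were higher in the 4E-BP1 cKO cells of all 4 bins, Psmd1, Psmd2 and Psmd11. This is close to the share over all genes, of which 7.47% were higher in all 4 bins.

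Psme4 was the 1 member with an interval below 1. It was at 207 CPM (195 to 221) in the control and 155 CPM (137 to 175) in the 4E-BP1 cKO library, a ratio of 0.748 (0.651 to 0.857), and it was lower in the 4E-BP1 cKO cells of each of the 4 bins, as were Psmb4 and Psme2b, 3 members where 11.2% of all genes were. Its log2 ratio of -0.42 ranged from -0.63 to -0.38 over the other settings. The next lowest were Psmb7 (62.7 and 51.3 CPM, 0.819, 0.639 to 1.04), Psme2b (16.03 and 13.8 CPM, 0.863, 0.522 to 1.38), Psmb5 (32.3 and 28.8 CPM, 0.893, 0.636 to 1.24) and Psmb4 (39.8 and 36.9 CPM, 0.928, 0.688 to 1.24), whose intervals all include 1. The ratio of immunoproteasome to constitutive catalytic UMIs was 0.835 (543 to 650 UMIs, 0.744 to 0.938) in the control library. It was 1.24 (274 to 221, 1.03 to 1.49) in the 4E-BP1 cKO library, and these intervals did not overlap. By pair the intervals of the libraries overlapped. Psmb8 to Psmb5 was 1.88 (1.55 to 2.30) and 3.16 (2.29 to 4.44). Psmb9 to Psmb6 was 0.515 (0.401 to 0.659) and 0.646 (0.449 to 0.924). Psmb10 to Psmb7 was 0.502 (0.410 to 0.612) and 0.708 (0.504 to 0.988). Under 3%, Psmb7 was at 74.8 CPM in control and 43.7 CPM in 4E-BP1 cKO cells. By bin the intervals of the summed ratio were apart only under 3% (0.487 and 1.08). They overlapped from 3 to 8% (0.927 and 1.19), from 8 to 15% (0.994 and 1.39) and at 15% or more, where the control ratio was the higher (1.41 and 1.22).

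In single cells few of these transcripts were captured. With every cell thinned to 872 UMIs (1058 cells of the control and 375 of the 4E-BP1 cKO library were deep enough), a control cell held a mean of 1.51 ± 1.31 (SD over cells) of the 50 genes and a 4E-BP1 cKO cell 1.78 ± 1.37. Across the 4 bins the means were 1.17, 1.93, 2.13 and 2.24 in control and 1.29, 2.06, 2.32 and 2.42 in 4E-BP1 cKO cells. The SDs between cells of a bin ran from 1.11 to 1.69, so that single cells of different bins overlapped widely. At full depth the means were 6.35 and 6.58 genes per cell, and the cell with the most held 39.

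The cells were also clustered with the principal components and resolution of the study's methods, which removed doublets with scDblFinder, whereas here the doublets were kept. All 50 genes were left out of the features, so that their levels did not shape the clusters. There were 9 clusters, numbered by size and not named. The share of UMIs on proteasome genes was lowest in cluster 8 (0.132%, 0.118 to 0.147%), followed by clusters 1 (0.138%), 7 (0.163%) and 2 (0.164%), whose median ribosomal shares were 1.19 to 1.34%. It was higher in clusters 4 (0.201%), 5 (0.238%), 6 (0.245%) and 3 (0.250%), with median ribosomal shares of 4.39 to 10.2%, and highest in cluster 9 (0.317%, 0.295 to 0.341%), the cluster of 42 cells with a median ribosomal share of 19.8%. Cluster 4 was the shallowest, at a median of 795 UMIs per cell, and clusters 1, 2, 7 and 8 lay between 2172 and 2413.5 UMIs. The 4 clusters with the highest proteasome shares were also the 4 deepest, at 4600 UMIs for cluster 9, 5565 for cluster 3, 8325.5 for cluster 6 and 6181.5 for cluster 5. The part of depth in these shares was not tested. The intervals of clusters 3, 5 and 6 overlapped, and so did those of clusters 2 and 7 and of clusters 1 (0.130 to 0.147%) and 8.

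Within clusters, Psmb8 was at 23.9 and 24.4 CPM in clusters 1 and 2, 31.4 in cluster 8, 46.6 in cluster 7, between 66.7 and 90.5 CPM in clusters 3 to 6, and at 218 CPM on 51 UMIs in cluster 9. Psme4 was lowest in cluster 9, at 107 CPM, and highest in cluster 8, at 302 CPM, with cluster 1 at 196 CPM. The ratio of immunoproteasome to constitutive catalytic UMIs was lowest in cluster 2 (0.420, 0.273 to 0.634) and highest in cluster 9 (1.51, 1.03 to 2.23). Comparing the libraries cluster by cluster, the proteasome share was higher in the 4E-BP1 cKO cells of 6 clusters and lower in those of 3. The intervals were apart in cluster 7 alone, at 0.152% (0.139 to 0.166%) in 116 control and 0.216% (0.182 to 0.255%) in 23 4E-BP1 cKO cells.

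A list of 24 partners of the proteasome outside the Psm symbols was set beside the members, and 23 were found in the count tables, all with at least 100 UMIs. Of these, 21 are not among the ribosomal protein genes that define the cell states, and the counts are over these. In the ribosome-richer cells of both libraries 7 were over 1.5-fold higher and 1 was lower, where 15.4% and 12.1% of all genes were. Among the 7 were the 19S subunit gene Sem1 (log2 1.403 and 1.25), the core maturation factor gene Pomp (1.46 and 2.32), the polyubiquitin gene Ubb (1.41 and 1.74), and Ubxn1, which encodes a ubiquitin-binding adaptor (1.84 and 2.16). The gene lower in both was Ube3c, a ubiquitin ligase that acts at the proteasome (-0.62 and -1.30). Nfe2l1, the transcription factor known to drive subunit genes when the proteasome is inhibited, gave 0.58 and -0.34. Between the genotypes, 0 of the 21 were over 1.5-fold higher and 0 lower in the 4E-BP1 cKO library, where 1.87% and 5.01% of all genes were. Their median log2 ratio was 0.10.

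Of 14 interferon-linked genes, 10 had at least 100 UMIs. In the ribosome-richer cells of both libraries 3 of these were over 1.5-fold higher, where 15.4% of all genes were. They were B2m, the light chain of MHC class I (log2 1.55 and 1.74), Bst2 (2.47 and 1.403) and Isg15 (1.12 and 0.85). Stat2, a transducer of the interferon signal, was the 1 gene over 1.5-fold lower in both (-1.17 and -1.16), where 12.1% of all genes were. The median over the 10 genes was 0.12 and 0.28, below the 1.43 and 0.87 of the 3 immunoproteasome genes. Both sets were compared without matching for gene span, and the part of span in this difference was not tested. Between the genotypes the median of the 10 genes was -0.19, while the 3 immunoproteasome genes had a median of 0.53. Nlrc5, an activator of MHC class I genes, was at -0.63 (ratio interval 0.437 to 0.904), whereas Bst2 at 0.49 (1.12 to 1.77) and Irf1 at 0.18 (1.02 to 1.27) had intervals above 1.

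As comparison complexes, 77 nuclear genes of oxidative phosphorylation with at least 100 UMIs had median log2 ratios between the cell states of 1.66 and 1.75, and 68 of them were over 1.5-fold higher in both libraries. For 14 genes of the lysosomal proton pump the medians were -0.14 and -0.06, and 4 were higher in both. Of all genes, 15.4% were over 1.5-fold higher in both. The members, at 0.92 and 0.87, lay between these complexes. Between the genotypes the medians of the 3 groups were close, at 0.18 for proteasome, 0.08 for oxidative phosphorylation and 0.19 for proton pump genes.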

How the data were processed

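Sorted lumbar spinal microglia were profiled with 10x 3′ single-cell RNA sequencing in 1 WT and 1 4E-BP1 cKO library, grouped by the labels. The deposited values are UMI counts per gene and barcode, which the authors made with Cell Ranger 8.0.1 on mm10. The count tables were not normalized. The proteasome genes and the other gene lists were chosen with earlier results of these data known.

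Cells needed over 300 genes and less than 5% mitochondrial UMIs, and counts were summed per library or cell state and scaled to CPM. Log2 ratios used a pseudocount of 1 CPM. A gene was called past 1.5-fold where it had at least 100 UMIs over both libraries. Cells are not replicates, so no p-value was computed. Intervals are exact Poisson intervals, or exact conditional binomial intervals for ratios, at 95%, and a floor of 3 UMIs stands for a count of 0. The libraries held 4914298 and 1769927 UMIs over 1216 and 474 barcodes before filtering. Detection per cell was compared after thinning to 872 UMIs, which left out 89 and 70 shallower cells. Clustering used Seurat 5.3.0 with sctransform 0.4.2, 20 principal components and a resolution of 1.4. Doublets were marked with Scrublet in scanpy 1.11.5 and kept, and their removal was an alternative. Other steps used Python 3.11.15, numpy 2.4.6, scipy 1.17.1 and pandas 2.3.3, with TMM factors from edgeR 4.0.16 in R 4.3.3 as an alternative. Spans and promoter windows came from RefSeq tables of GRCm38.p6.

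All 50 members were accounted for. Those named with values were the catalytic and inducible beta subunits, Psme1, Psme2, members under 20 UMIs, and the 5 highest and 5 lowest members of each contrast, and further members were named where a count needed them. In simulated counts for the contrast of libraries over 7184 genes, 200 genes changed 2-fold were recovered in the right direction in 100% of cases and past 1.5-fold in 94.5%, with 1.06% of unchanged genes past 1.5-fold. The simulated counts held counting error alone. These rates therefore do not cover variation among cells, mice or sorts and are not error rates of the real contrast. Values of some genes of the comparison lists are not reported here.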

Additional observations from a re-analysis of the deposited data

How the results depend on the processing

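No paired analysis was possible because each genotype has 1 library. Of the results over all members, 110 recomputed values stayed and 49 moved. Staying meant within counting error, within 1.5 times the reported count or, for members detected per cell, within 1 SD over cells. That SD (1.31 and 1.37) is nearly as large as the means (1.51 and 1.78), so only a large change would count as moved there. The sign changed in 1 recomputed value, the ratio of immunoproteasome to constitutive catalytic UMIs in 4E-BP1 cKO cells at 3% or more relative to under 3%. This ratio went from 1.18 to 0.975 with a ribosomal limit of 4%. For single named genes 445 values stayed and 47 moved, and 1 value past 1.5-fold reversed (Psma4, given below). With changes of sign at any size counted, that one included, there were 18 values in 12 results, and the others were under 1.5-fold as reported. The causes of these changes were not tested.

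The share of UMIs on members was 0.222% and 0.246% (WT and 4E-BP1 cKO) with ribosomal and mitochondrial genes out of the total, 0.185% and 0.220% after thinning to 872 UMIs, and 0.184% and 0.213% in cells of 2000 to 6000 UMIs, a setting chosen after seeing the data. Between genotypes, averaging over ribosomal bins gave log2 0.0715 for the sum and 0.0334 for the median member, thinning 0.25 and 0.38, and the depth window 0.21 and 0.35. The medians over all genes in these settings were -0.07, -0.04 and -0.03. Members over 1.5-fold higher in 4E-BP1 cKO numbered 1 with doublets removed, with the reduced total or with TMM factors. They numbered 2 averaged over bins, 12 thinned and 5 in the window, beside 4.37%, 10.5% and 8.41% of all genes. Members over 1.5-fold lower numbered 1 with a minimum of 20 UMIs, averaged over bins or thinned, and 2 with no minimum or in the window. For the lower direction and the remaining settings the share of all genes was not computed, so those counts have no background beside them.

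Between cell states, the WT log2 ratio of the sum was 0.72 with the reduced total, 0.86 with TMM factors, 0.71 and 0.54 with ribosomal limits of 2% and 4%, 0.72 thinned and 0.77 in the window. The WT median was 1.15 with TMM factors, 0.72 with a pseudocount of 10 CPM, 0.80 with no minimum, 1.03 and 0.73 with limits of 2% and 4%, 1.06 thinned and 1.25 in the window. In 4E-BP1 cKO the sum was 0.92 and the median 1.08 with TMM factors, and the median was 1.07 thinned and 1.19 in the window. The number of members higher in both libraries ran from 18 to 28, and 1 was lower in both with a limit of 4% or in the window. At the main setting 15.4% of all genes were higher in both and 12.1% lower. The share of all genes was not computed for the other settings. Depth was not equal between the cell states within the window. Psma4 in 4E-BP1 cKO cells reversed to -0.28 after thinning.

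The ratio of immunoproteasome to constitutive catalytic UMIs was 0.724 in WT after thinning. Its value at 3% or more relative to under 3% was 2.63 in 4E-BP1 cKO cells in the window. With every UMI used, 6.35 and 6.58 members were detected per cell. The highest cluster share over the lowest was 1.86 at a resolution of 0.8, 2.82 with a mitochondrial limit of 10% and 2.91 with more than 500 genes.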
